A study of Mus musculus with 6 samples.

Results

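Mitosis and spindle genes were followed here as 40 named genes out of 28836 in the expression table of a macrophage-like cell line. They were picked by name as genes that act in G2 and M phase: regulators of mitotic entry, mitotic kinases, checkpoint and degradation factors, kinetochore and passenger proteins, spindle proteins, kinesins, cytokinesis factors and chromatin proteins of dividing cells. All 40 were found and all passed the expression filter, with 235 to 17853 estimated counts per library. The rule names the genes and sets no threshold on measured values, and the names were proposed with earlier results of these data in view.

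RNA came from RAW264.7, a single mouse line that grew out of a tumour raised with Abelson leukaemia virus and that divides freely in culture. The 3 untreated libraries received no agent according to the labels, and the 3 GB2-treated libraries received GB2, a prodrug in which a disulfide bond joins the STING agonist MSA-2 to artesunate, used by the study against the receptor TREM2. No dose, exposure time, genotype change or age is given by the labels for either group. A figure legend of the study does give a GB2 concentration and exposure time for its RAW264.7 coculture. By the study's results text and that legend, tumour cells shared the medium across a transwell membrane above the sequenced macrophages. It is not clearly stated that this also held for the untreated cells. The study calls its replicates biological, but the labels do not say that they were separate cultures, so the p-values reflect library-to-library spread alone, which may be technical.

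Mitosis begins when cyclin B bound to CDK1 drives a cell with copied DNA out of G2. Chromosomes condense, kinetochores assemble on centromeres and catch spindle microtubules, and the spindle assembly checkpoint holds back the anaphase-promoting complex until every kinetochore is attached. Transcripts of most of these genes accumulate late in the cell cycle, through promoters in which the DREAM and MYB-MuvB complexes bind a CHR element and NF-Y binds CCAAT boxes. A dividing macrophage line carries them without any stimulus. In bulk RNA, more cells in G2 and M phase and more RNA per such cell cannot be told apart.

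Libraries held 62660734 to 77337345 estimated counts. Summed FPKM (fragments scaled to transcript length and library total) of 9 macrophage markers was 15368 to 15911 in untreated and 7630 to 8793 in GB2-treated libraries. Most of that sum was Lyz2 (12760 to 13344 and 6070 to 7062 FPKM), which was not called. Csf1r and Cd68 were called lower, while Itgam (155 to 160 and 197 to 208 FPKM) and Cd14 (691 to 707 and 615 to 682 FPKM) were not called. Adgre1 (61.3 to 64.6 and 34.0 to 38.0 FPKM), Fcgr3 (105 to 109 and 59.5 to 67.8 FPKM) and Spi1 (97.3 to 106.6 and 60.35 to 69.3 FPKM) were not called either. These genes were nevertheless lower in every treated library. Mertk was called higher, but it stood at 0.44 FPKM in GB2-treated replicates 2 and 3 and at 0.11 in replicate 1, against 0.09 to 0.13 in untreated libraries. GB2-treated replicates 2 and 3 stood apart through transcripts of other tissues. In these 2 libraries 8 liver markers summed to 565.0 and 549.0 FPKM, against 7.94 in GB2-treated replicate 1 and 4.54 to 4.71 in untreated libraries. Apoa2, an apolipoprotein made by liver, was at 3.41 FPKM in replicate 1 against 0.15 to 0.31 in untreated libraries, and albumin itself (Alb) was listed at 323 and 325 FPKM against 0 in the others. Epithelial markers (8 genes) summed to 64.8 and 65.1 FPKM against 1.31 to 1.81, and erythroid markers (6 genes) to 114.2 and 115.1 FPKM against 2.22 to 3.43. Results are therefore also given for GB2-treated replicate 1 alone.

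The mitotic genes rose together in GB2-treated cells. By edgeR (FDR below 0.05 and at least 2-fold), 28 of 40 were called higher and 0 lower, where 13.4% of the 17124 tested genes were called higher and 7.73% lower. Another 9 passed the FDR below 2-fold, which makes 37 higher and 0 lower by FDR alone, against 26.8% higher and 29.6% lower among all tested genes. The median log2 change of the 40 was 1.17, a 2.25-fold difference, with quartiles at 0.92 and 1.48, while the median of all tested genes was 0.01. With limma on log2(FPKM + 1) 16 members were called higher, and 598 of all genes. The 3 genes that failed the FDR were Foxm1, Incenp and Mad2l1. On scaled counts every treated library exceeded every untreated one for 38 of 40 genes, against 29.3% of tested genes, and on FPKM for 37, where Foxm1 overlapped beside Incenp and Mad2l1. Lower members also numbered 0 at an unadjusted edgeR p under 0.05 and 0 by DESeq2.

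Summed over the 40 genes, counts per library total (CPM) were 784.9, 758.7 and 811.8 in untreated replicates 1 to 3 and 1817, 1815 and 1825 in GB2-treated replicates 1 to 3. On this scale the treated libraries lay closer to one another (1819 ± 5.21, SD, n = 3) than the untreated ones (785.1 ± 26.6, SD, n = 3). Summed FPKM was 156.2, 149.1 and 159.0 in untreated and 376.6, 360.4 and 380.5 in treated libraries. In summed FPKM the treated libraries had a wider absolute range, but at a higher level. The marked closeness in CPM thus depends on the scaling. On both measures the groups were far from overlapping, with a CPM ratio of 2.32. GB2-treated replicate 1, which held far less of the liver transcripts, was also above the untreated libraries. Median log2 change of the members was 1.14 in GB2-treated replicate 1 and 1.21 in each of replicates 2 and 3 against the untreated mean. In the fit with replicate 1 as the only treated library it was 1.19. In that fit the 3 untreated libraries alone supply the spread, and the lone treated library is assumed to vary like them. Gene by gene, replicate 1 differed from the mean of replicates 2 and 3 by -0.25 to 0.26 on the log2 scale (median -0.01).

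**Figure D1:**
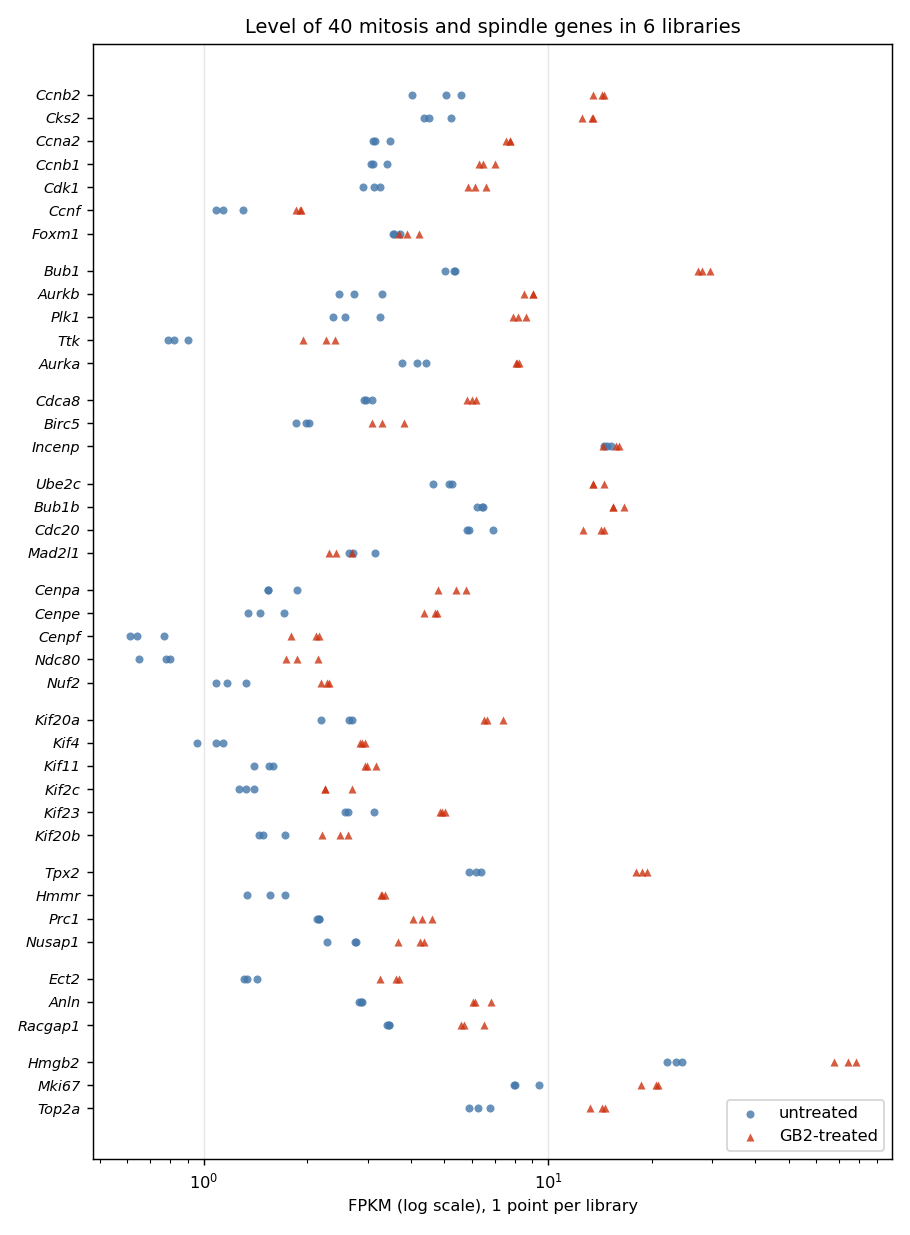
FPKM of each of the 40 genes (rows) on a log axis in the 3 untreated and 3 GB2-treated libraries, 1 point per library. The treated points lie to the right of the untreated points for 37 genes, and mix with them for Foxm1, Incenp and Mad2l1.

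Starting levels differed widely among the genes. Untreated means ran from 0.673 FPKM (Cenpf) to 23.4 FPKM (Hmgb2), with a median of 2.84, and 35 of 40 lay between 1 and 10 FPKM. After GB2 the means ran from 1.89 (Ccnf) to 73.4 FPKM (Hmgb2), with a median of 5.98, and 11 genes were at 10 FPKM or more where 2 had been before. Over the 40 genes, Spearman's rho of untreated FPKM with log2 change was 0.07, a description across genes that share libraries and depth. The coefficient of variation between libraries was 0.534% to 17.0% in untreated cells and 1.86% to 12.1% in GB2-treated cells.

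Promoters of the members are shown before the single genes because the same short elements recur in them. RefSeq (GRCm38.p6, the mm10 assembly) gave promoters of 300 bases, 250 before and 50 after the transcript start, for 34 of the 40 genes. The 5 below are those of the 3 largest and the 2 smallest log2 changes among matched genes with a CHR element. Capitals mark CHR matches (TTTGAA, or the variant TTCGAA) and CCAAT boxes on either strand, so that a match on the other strand reads TTCAAA for the CHR and ATTGG for the box.
Bub1, chr2:127831810-127832109, minus strand: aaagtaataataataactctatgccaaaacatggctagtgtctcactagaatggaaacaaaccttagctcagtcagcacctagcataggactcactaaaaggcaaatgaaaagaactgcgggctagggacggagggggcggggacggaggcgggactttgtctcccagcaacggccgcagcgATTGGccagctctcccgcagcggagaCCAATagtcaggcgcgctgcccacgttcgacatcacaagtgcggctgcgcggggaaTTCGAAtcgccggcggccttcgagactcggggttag
Cenpa, chr5:30666636-30666935, plus strand: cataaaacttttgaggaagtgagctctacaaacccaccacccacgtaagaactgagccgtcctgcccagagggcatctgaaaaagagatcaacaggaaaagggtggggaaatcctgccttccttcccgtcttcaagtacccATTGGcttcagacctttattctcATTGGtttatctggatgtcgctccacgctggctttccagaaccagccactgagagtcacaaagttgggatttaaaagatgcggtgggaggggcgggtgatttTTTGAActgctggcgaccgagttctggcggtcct
Hmgb2, chr8:57511593-57511892, plus strand: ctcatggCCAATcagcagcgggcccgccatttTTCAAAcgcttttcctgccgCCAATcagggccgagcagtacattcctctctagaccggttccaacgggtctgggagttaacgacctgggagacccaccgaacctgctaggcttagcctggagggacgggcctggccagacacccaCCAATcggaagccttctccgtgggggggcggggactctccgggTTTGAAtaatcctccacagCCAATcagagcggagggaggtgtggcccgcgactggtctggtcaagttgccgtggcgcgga
Ccnf, chr17:24251360-24251659, minus strand: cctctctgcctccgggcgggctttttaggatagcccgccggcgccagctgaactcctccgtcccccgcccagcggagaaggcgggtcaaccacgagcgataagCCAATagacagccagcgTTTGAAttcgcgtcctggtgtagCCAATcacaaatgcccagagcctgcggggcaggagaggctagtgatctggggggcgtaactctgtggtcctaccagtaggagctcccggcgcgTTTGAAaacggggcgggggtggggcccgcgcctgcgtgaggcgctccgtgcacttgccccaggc
Kif20b, chr19:34922108-34922407, plus strand: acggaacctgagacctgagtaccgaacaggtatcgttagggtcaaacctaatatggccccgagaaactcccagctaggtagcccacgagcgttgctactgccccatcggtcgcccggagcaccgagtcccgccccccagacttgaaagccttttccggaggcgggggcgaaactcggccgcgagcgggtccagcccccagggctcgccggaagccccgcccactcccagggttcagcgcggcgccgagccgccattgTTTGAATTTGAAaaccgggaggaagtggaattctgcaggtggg

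In Bub1 the CHR match began 15 bases after the start and CCAAT boxes began 68 and 42 bases before it. Cenpa had the same order, with a CHR match 17 bases after and CCAAT boxes 109 and 86 bases before the start. Hmgb2 held CHR matches 218 and 30 bases before the start among 4 CCAAT boxes. Ccnf, called neither higher nor lower, also held both elements, while Kif20b held CHR matches 8 and 14 bases after the start and no CCAAT box.

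Over the 36 promoters of the 34 matched genes (some genes have more than 1), the CHR letters occurred in 29 (80.6%) on either strand, against 19.2% of 32851 mouse promoters of the same length. CCAAT occurred in 28 (77.8%) against 37.4% of all promoters, and both together in 25 (69.4%) against 7.52%. Within the stretch from 60 bases before the start onward, 27 member promoters (75%) held a CHR match, against 5.90% of all. An E2F-type motif, which is TTGGCGC, the variant TTCCCGC or the variant TTCGCGC, occurred in 6 member promoters (16.7%) against 8.07%. Genes with a CHR match numbered 27, of which 21 were called higher. Of the 7 genes without one, 3 were called higher. These shares were not compared by a test, and 28 of all 40 members and 13.4% of all tested genes were called higher. Birc5, Mad2l1, Nuf2 and Nusap1 held none of the 3 motifs in this window. Such counts describe letters and not bound sites.

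**Figure D2:**
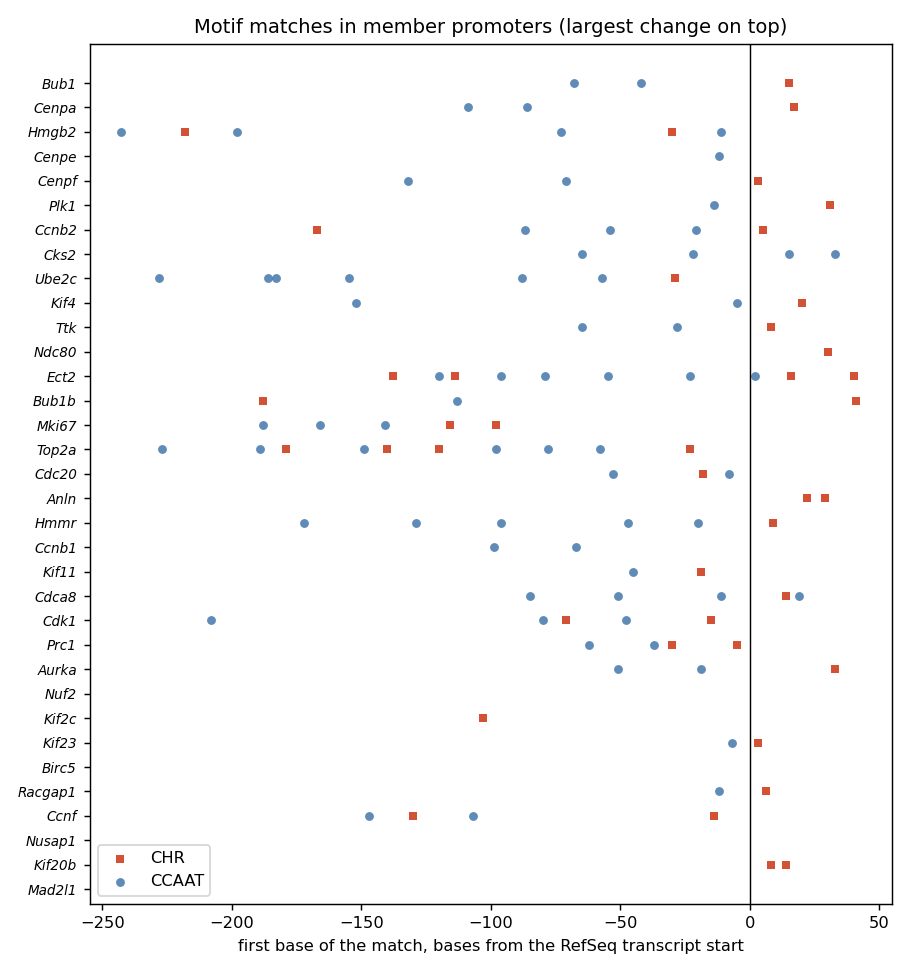
First base of each CHR match (red squares) and CCAAT match (blue circles) in bases from the RefSeq transcript start (0, vertical line) for the 34 members with a promoter, ordered by log2 change with the largest on top. CHR matches gather near the start (29 of 42 from 60 bases before it onward), CCAAT boxes mostly before it, and 4 genes hold neither.

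Regulators of mitotic entry were called higher in 5 of 7 cases, against 13.4% of all tested genes, with a median log2 change of 1.06. Ccnb2, a B-type cyclin that activates CDK1, measured 5.59, 4.02 and 5.06 FPKM in untreated replicates 1 to 3 and 14.38, 13.54 and 14.50 in GB2-treated replicates 1 to 3. All treated libraries lay well above the untreated ones, and the log2 change was 1.55 ± 0.13 (SE, edgeR FDR = 3.34e-05). Ccnb1, the main B-type cyclin of somatic cells, rose less, from 3.42, 3.10 and 3.07 to 6.32, 7.03 and 6.47 FPKM (log2 change 1.06 ± 0.08, FDR = 2.64e-05). The log2 ratio of Ccnb2 to Ccnb1 counts went from -0.86 in untreated to -0.36 in treated cells, a pair picked after its values were seen and given without a test.

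Cdk1, the kinase that these cyclins switch on, measured 2.91, 3.12 and 3.26 FPKM in untreated and 6.13, 5.86 and 6.61 FPKM in treated libraries. The groups did not overlap, but the log2 change of 1.02 ± 0.07 (FDR = 1.01e-05) sat at the 2-fold limit. Cks2, a small subunit that docks on CDK1, went from 4.37, 5.22 and 4.52 to 12.53, 13.41 and 13.55 FPKM (log2 change 1.5 ± 0.13, FDR = 5.51e-05). Ccna2, the cyclin of S and G2 phase, went from 3.47, 3.10 and 3.15 to 7.74, 7.74 and 7.53 FPKM (log2 change 1.26 ± 0.07, FDR = 4.79e-06). Both were separated between groups by a wide gap.

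The other genes of mitotic entry stayed under 2-fold. Ccnf, an F-box protein that marks substrates for breakdown in G2, passed the FDR at a log2 change of 0.70 ± 0.10 (1.18 ± 0.110 to 1.89 ± 0.0306 FPKM, SD, n = 3, FDR = 0.000687). Foxm1, a transcription factor known to drive G2 and M genes (chr6:128362967-128376146, ENSMUSG00000001517), measured 3.72, 3.58 and 3.56 FPKM in untreated and 3.89, 3.70 and 4.23 FPKM in treated libraries. These ranges overlapped by a small margin, and the log2 change of 0.14 ± 0.06 failed the test (FDR = 0.0985).

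The mitotic kinases held the gene with the largest change of all 40. Bub1, the checkpoint kinase that marks centromeric chromatin for shugoshin and the passenger complex (chr2:127801122-127831865, minus strand, ENSMUSG00000027379), measured 5.38, 5.02 and 5.35 FPKM in untreated and 28.04, 27.26 and 29.57 FPKM in GB2-treated libraries. Every treated library was above every untreated one by a wide gap, and the rise was 5.45-fold (log2 change 2.45 ± 0.04, FDR = 3.75e-08). Its nearest tested neighbour, Mtln, 8.63 kb away, did not pass the FDR, with a log2 change of 0.11 (FDR = 0.525). Mal, 144 kb away, was called higher (log2 change 2.19, FDR = 0.0241). These neighbours were looked up after the value of Bub1 was seen.

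Aurkb, the kinase of the chromosomal passenger complex, measured 3.30, 2.47 and 2.74 FPKM in untreated and 9.06, 8.54 and 9.03 FPKM in treated libraries (log2 change 1.66 ± 0.11, FDR = 1.39e-05). Plk1, which acts at centrosomes, kinetochores and the midzone, went from 3.25, 2.58 and 2.38 to 7.90, 8.16 and 8.62 FPKM (log2 change 1.60 ± 0.13, FDR = 3.72e-05). Both kinases were separated between groups, and both varied more among the untreated libraries than among the treated ones. Ttk, the kinase (MPS1) that starts checkpoint signalling at unattached kinetochores, rose from 0.79, 0.82 and 0.90 to 2.26, 1.95 and 2.41 FPKM (log2 change 1.42 ± 0.12, FDR = 4.83e-05). Aurka, the centrosome kinase, went from 3.76, 4.43 and 4.17 to 8.06, 8.22 and 8.11 FPKM. Its groups did not overlap, but its log2 change of 0.9966 (SE 0.09, FDR = 4.76e-05) fell just short of the 2-fold limit.

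Of 4 checkpoint and degradation genes, 3 were called higher, against 13.4% of all tested genes. Ube2c, the ubiquitin-conjugating enzyme of the anaphase-promoting complex, measured 5.28, 4.63 and 5.17 FPKM in untreated and 14.54, 13.47 and 13.52 FPKM in treated libraries (log2 change 1.48 ± 0.07, FDR = 2.70e-06). Bub1b, which encodes the checkpoint protein BUBR1, rose from 6.48, 6.23 and 6.45 to 16.57, 15.40 and 15.44 FPKM (log2 change 1.32 ± 0.05, FDR = 6.94e-07). Cdc20, the activator that the checkpoint holds back, rose from 6.91, 5.80 and 5.91 to 14.21, 12.66 and 14.54 FPKM (log2 change 1.17 ± 0.09, FDR = 3.01e-05). In each of these the lowest treated library was above the highest untreated one.

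Mad2l1 (MAD2, the inhibitor that binds CDC20 at the checkpoint; chr6:66535390-66547220, ENSMUSG00000029910) did not share this. It measured 2.65, 2.72 and 3.14 FPKM in untreated and 2.32, 2.43 and 2.70 FPKM in treated libraries, overlapping ranges with a log2 change of -0.17 ± 0.08 (FDR = 0.118). The log2 ratio of Bub1b to Mad2l1 counts was 0.20 ± 0.13 in untreated and 1.70 ± 0.16 in treated cells (SD, n = 3). The ratio of Bub1 to Bub1b went from -0.26 ± 0.02 to 0.87 ± 0.09 on the same scale. These pairs of checkpoint partners were chosen after the values were seen, and the ratios are a description.

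At the kinetochore 4 of 5 genes were called higher, against 13.4% of all tested genes, with a median log2 change of 1.61. Cenpa, the histone H3 variant that defines the centromere (chr5:30666777-30674830), measured 1.54, 1.54 and 1.87 FPKM in untreated and 5.40, 4.78 and 5.78 FPKM in treated libraries. No library crossed between groups, and the rise was 3.25-fold (log2 change 1.70 ± 0.10, FDR = 6.43e-06). Cenpe, the kinesin that carries chromosomes to the spindle equator, rose from 1.46, 1.35 and 1.71 to 4.37, 4.77 and 4.71 FPKM (log2 change 1.63 ± 0.09, FDR = 4.89e-06). Cenpf, a large protein of the outer kinetochore, rose from 0.64, 0.61 and 0.77 to 1.80, 2.12 and 2.16 FPKM (log2 change 1.61 ± 0.11, FDR = 1.41e-05).

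Ndc80 and Nuf2 form 1 arm of the complex that grips microtubules. Ndc80 measured 0.80, 0.65 and 0.78 FPKM in untreated and 1.87, 1.74 and 2.15 FPKM in treated libraries (log2 change 1.39 ± 0.13, FDR = 6.59e-05). Its partner Nuf2 went from 1.33, 1.09 and 1.17 to 2.32, 2.2 and 2.28 FPKM, separated between groups but under 2-fold (log2 change 0.94 ± 0.10, FDR = 0.000188). The log2 ratio of Ndc80 to Nuf2 counts was higher by 0.45 (SE 0.10) in treated cells, again a pair picked after the fact.

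The other subunits of the chromosomal passenger complex, which brings AURKB to centromeres and then to the midzone, had smaller log2 changes than their kinase. Of these 3 subunits, 1 was called higher, against 13.4% of all tested genes. Cdca8 (borealin) rose from 2.97, 2.92 and 3.09 to 6.2, 5.81 and 6.0 FPKM (log2 change 1.02 ± 0.06, FDR = 4.94e-06). Birc5 (survivin) went from 1.85, 2.03 and 1.98 to 3.81, 3.29 and 3.08 FPKM (log2 change 0.81 ± 0.12, FDR = 0.000896), above every untreated library but under 2-fold. Incenp, the scaffold of the complex (chr19:9872296-9899551, ENSMUSG00000024660), measured 14.52, 14.84 and 15.20 FPKM in untreated and 15.75, 14.45 and 16.03 FPKM in treated libraries. Its groups overlapped and its log2 change of 0.07 ± 0.04 failed the test (FDR = 0.180). The log2 ratio of Aurkb to Incenp counts thus went from -2.95 ± 0.23 to -1.35 ± 0.03 (SD, n = 3), that of Cdca8 to Incenp was higher by 0.95 and that of Birc5 to Incenp by 0.74.

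**Figure D3:**
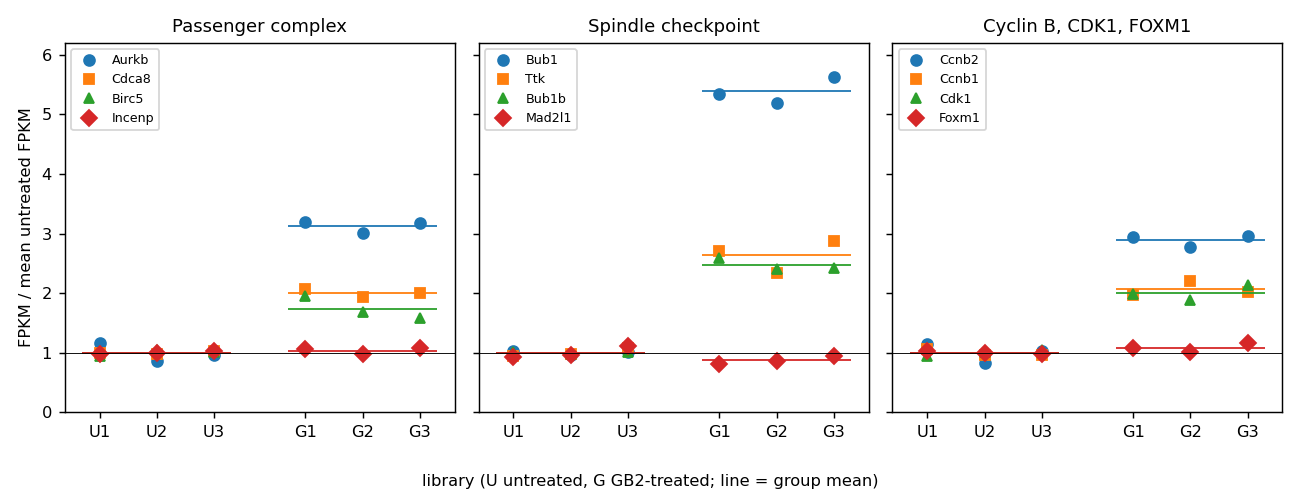
FPKM of each library divided by the gene's untreated mean for members of the passenger complex (left), the spindle checkpoint (middle) and cyclin B, CDK1 and FOXM1 (right), with 1 point per library (U untreated, G GB2-treated) and a line at each group mean. Incenp, Mad2l1 and Foxm1 lie near 1 in every library, while the other genes are higher in all 3 treated libraries.

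Among 4 spindle proteins, 3 were called higher, against 13.4% of all tested genes. Tpx2, which activates AURKA and seeds microtubules near chromosomes (chr2:152847964-152895321), measured 6.37, 5.91 and 6.16 FPKM in untreated and 19.44, 18.06 and 18.72 FPKM in treated libraries. Its groups were wide apart relative to their spread, with a log2 change of 1.62 ± 0.05 (FDR = 2.36e-07). Hmmr, which anchors spindle poles, rose from 1.72, 1.34 and 1.56 to 3.28, 3.36 and 3.29 FPKM (log2 change 1.12 ± 0.11, FDR = 8.59e-05). Prc1, the crosslinker of midzone microtubules, rose from 2.16, 2.14 and 2.17 to 4.05, 4.30 and 4.59 FPKM (log2 change 1.01 ± 0.06, FDR = 4.79e-06). Nusap1, which bundles microtubules around chromosomes, went from 2.75, 2.28 and 2.77 to 3.68, 4.26 and 4.38 FPKM, separated but under 2-fold (log2 change 0.68 ± 0.11, FDR = 0.00145).

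Of 6 kinesins, 3 were called higher and all 6 passed the FDR as higher, against 13.4% and 26.8% of all tested genes. Kif20a, which moves passenger proteins to the midzone, rose from 2.2, 2.64 and 2.69 to 7.40, 6.52 and 6.63 FPKM (log2 change 1.47 ± 0.10, FDR = 1.26e-05). Kif4, a chromosome-bound motor that shortens the midzone, rose from 1.14, 1.09 and 0.96 to 2.94, 2.85 and 2.89 FPKM (log2 change 1.46 ± 0.10, FDR = 1.65e-05). Kif11 (Eg5), which pushes spindle poles apart, rose from 1.40, 1.55 and 1.59 to 2.95, 2.99 and 3.16 FPKM (log2 change 1.02 ± 0.08, FDR = 2.17e-05). For all 6, every treated library was above every untreated one, which held for 29.3% of all tested genes. Kif2c, which takes microtubules apart at centromeres, changed by 0.86 ± 0.12, Kif23, the motor of the centralspindlin complex, by 0.85 ± 0.08, and Kif20b, a late mitotic motor, by 0.67 ± 0.10 on the log2 scale (FDR = 0.000662, 7.13e-05 and 0.00100).

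Cytokinesis genes were called higher in 2 of 3 cases, against 13.4% of all tested genes. Ect2, the exchange factor that activates RHOA at the cleavage furrow, rose from 1.31, 1.43 and 1.34 to 3.62, 3.69 and 3.26 FPKM (log2 change 1.38 ± 0.10, FDR = 1.51e-05). Anln (anillin), the scaffold of the contractile ring, rose from 2.82, 2.87 and 2.88 to 6.07, 6.13 and 6.81 FPKM (log2 change 1.16 ± 0.05, FDR = 9.92e-07). Racgap1, the partner of KIF23 in centralspindlin, went from 3.41, 3.45 and 3.46 to 5.7, 5.6 and 6.54 FPKM, separated but under 2-fold (log2 change 0.80 ± 0.06, FDR = 1.58e-05). The log2 ratio of Kif23 to Racgap1 counts was -0.16 ± 0.15 in untreated and -0.11 ± 0.14 in treated cells (SD, n = 3), a difference of 0.05 with SE 0.12.

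All 3 chromatin genes were called higher, against 13.4% of all tested genes. Hmgb2, a DNA-bending protein abundant in dividing cells (chr8:57511907-57515999), had the highest level of the 40: 23.59, 22.17 and 24.48 FPKM in untreated and 78.42, 67.68 and 74.12 FPKM in treated libraries. The lowest treated library was far above the highest untreated one (log2 change 1.67 ± 0.06, FDR = 6.52e-07). Mki67, the coat protein of mitotic chromosomes used as a proliferation marker, rose from 8.02, 7.98 and 9.40 to 18.57, 20.52 and 20.82 FPKM (log2 change 1.26 ± 0.07, FDR = 6.15e-06). Top2a, the topoisomerase that untangles sister chromatids, rose from 6.25, 5.90 and 6.80 to 13.22, 14.32 and 14.66 FPKM (log2 change 1.17 ± 0.06, FDR = 3.18e-06).

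**Figure D4:**
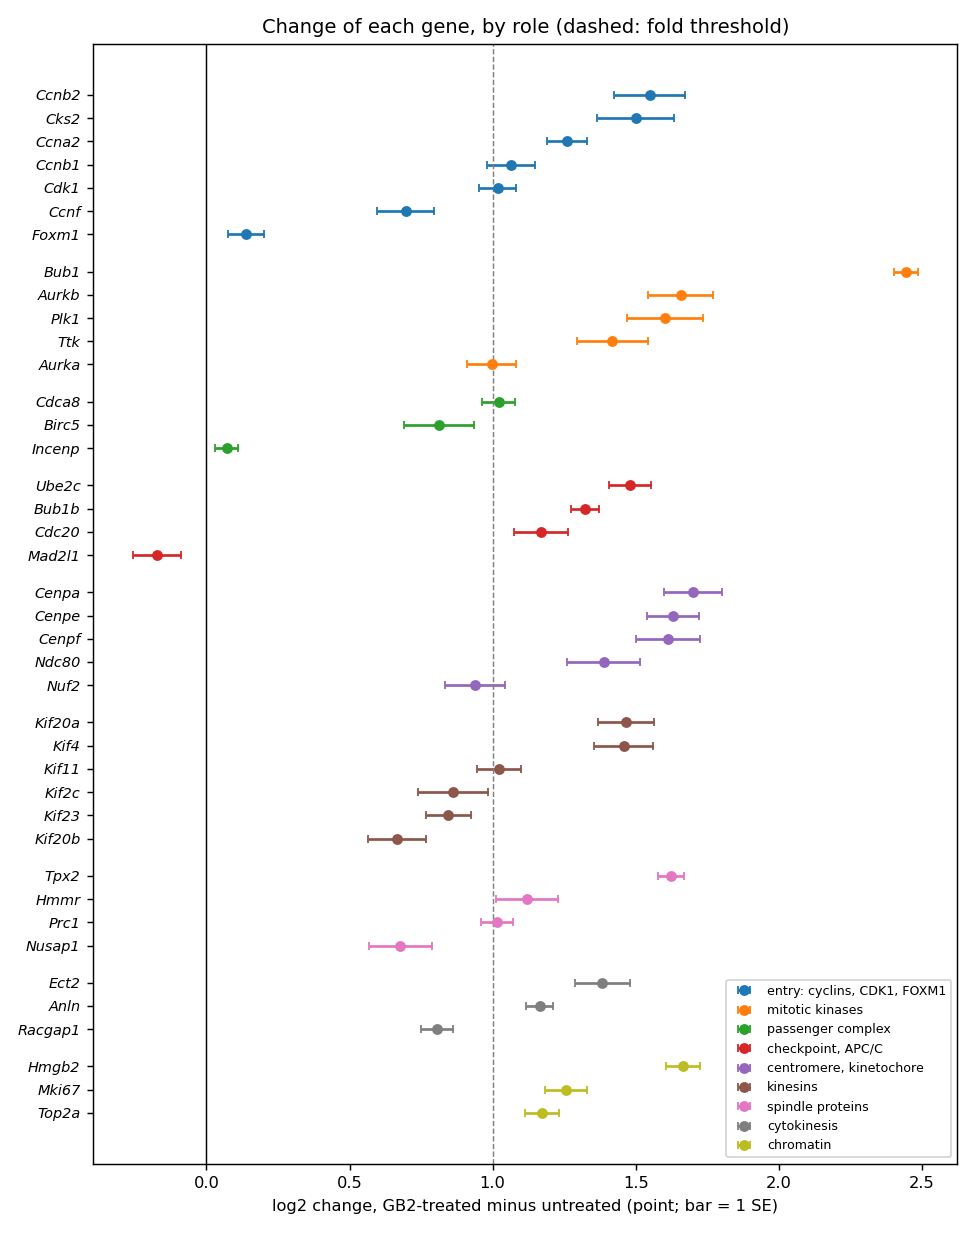
Log2 change (GB2-treated minus untreated, edgeR) with its standard error for the 40 genes, grouped and coloured by role, with a dashed line at the 2-fold limit. Bub1 stands at 2.45, most genes lie between 0.67 and 1.70, and Foxm1, Incenp and Mad2l1 lie near 0.

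Calls close to the 2-fold limit depended on single libraries. Without untreated replicate 1, Cdk1, Cdca8, Kif11 and Prc1 lost the call at log2 changes of 0.957, 0.9969, 0.949 and 0.9982, and Nuf2 gained it at 1.002. Without untreated replicate 2, Cdca8 and Prc1 lost it (0.988 and 0.993) and Aurka gained it (1.04). Without untreated replicate 3, Prc1 lost it (0.9902), and without GB2-treated replicate 1, Cdca8 and Cdk1 did (0.969 and 0.9971). Aurka gained it without GB2-treated replicate 2 or 3 (1.003 and 1.04). All of these passed the FDR in every such fit. Overlap between genes bears on a few members: exons of Kif20a (29.3% of bases), Ube2c (22.8%), Kif4 (15.1%), Ccna2 (12.5%) and Prc1 (11.1%) share sequence with a gene on the other strand, and Ccnb1, Ccnb2 and Kif4 have named pseudogenes, so their values are uncertain to that extent.

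Wider sets of cell cycle genes, listed by name, place the 40 in context. Of 110 other mitosis and spindle genes, 34 were called higher and 1 lower, against 13.4% and 7.73% of all tested genes, and the median log2 change was 0.68. With limma on log2(FPKM + 1) these counts were 8 and 0, and those of all genes 598 and 614. Hjurp, the chaperone that loads CENP-A at centromeres, measured 7.70, 7.17 and 7.12 FPKM in untreated and 38.42, 36.12 and 39.94 FPKM in treated libraries, wide apart and close to Bub1 in size (log2 change 2.40 ± 0.05, FDR = 6.50e-08). Pbk (a mitotic kinase, 1.69 ± 0.12), Troap (a spindle-associated protein, 1.67 ± 0.14), Ska1 (kinetochore-microtubule coupling, 1.66 ± 0.21), Ckap2l (a spindle protein, 1.62 ± 0.09), Ncapg (condensin, 1.57 ± 0.09), Cenpq (inner kinetochore, 1.54 ± 0.15) and Cep55 (abscission, 1.53 ± 0.10) followed on the log2 scale. The gene called lower was Wee1, the kinase that holds CDK1 inactive until mitosis, at 3.55, 2.96 and 3.46 FPKM in untreated and 1.15, 1.16 and 1.23 FPKM in treated libraries (log2 change -1.47 ± 0.12, FDR = 3.45e-05). Pkmyt1, a related kinase of the list, went the other way and was called higher (1.57 to 3.73 FPKM, log2 change 1.26 ± 0.11, FDR = 6.02e-05). It was picked out after its value was seen. By FDR alone 80 of the 110 were higher and 18 lower, against 26.8% and 29.6% of all tested genes.

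Genes of DNA replication had a median near that of all tested genes. Of 55, edgeR called 0 higher and 1 lower, against 13.4% and 7.73% of all tested genes. The median log2 change was -0.05, and DESeq2 also called 0 higher and 1 lower. The unadjusted edgeR p was under 0.05 for 16 genes with higher and 19 with lower values. The FDR alone passed 15 and 19, where it passed 26.8% higher and 29.6% lower among all tested genes. The gene called lower was Chaf1b, a subunit of the histone chaperone CAF-1, at 4.63, 4.36 and 4.49 FPKM in untreated and 1.55, 1.82 and 2.52 FPKM in treated libraries (log2 change -1.18 ± 0.16, FDR = 0.000552). The difference between the replication and mitosis sets was not tested.

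**Figure D5:**
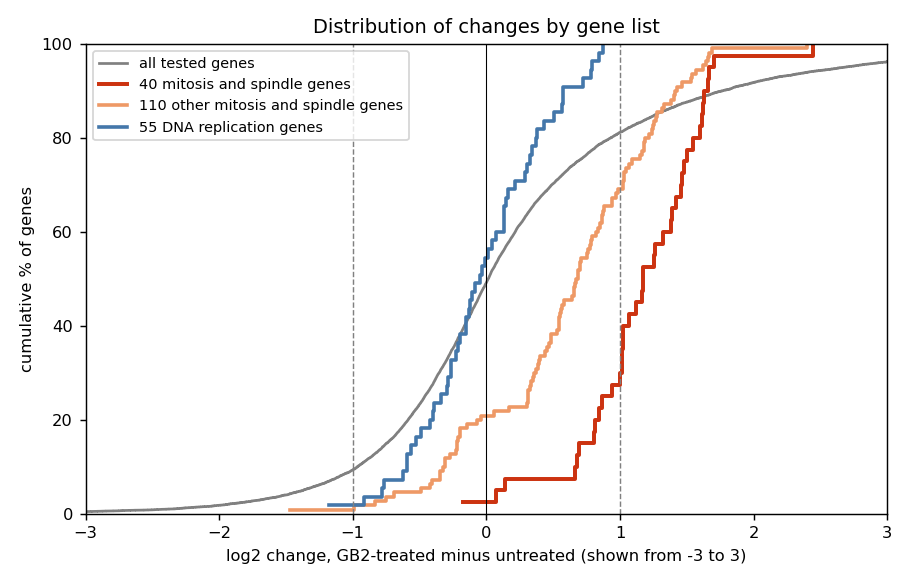
Cumulative percent of genes (vertical) against log2 change, GB2-treated minus untreated (horizontal, shown from -3 to 3), for the 40 members, 110 other mitosis genes, 55 DNA replication genes and all 17124 tested genes, with dashed lines at the 2-fold limits. Medians are 1.17 for the members, 0.68 for the 110 other mitosis genes, -0.05 for the 55 DNA replication genes and 0.01 for all tested genes.

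Inhibitors of cyclin-dependent kinases differed in direction. Cdkn1a, which encodes the CDK inhibitor p21, measured 41.99, 44.66 and 42.97 FPKM in untreated and 258.77, 241.70 and 252.08 FPKM in treated libraries (log2 change 2.55 ± 0.05, FDR = 3.75e-08). Cdkn1b, which encodes p27, went from 9.40 ± 0.433 to 28.9 ± 1.11 FPKM (SD, n = 3, log2 change 1.64 ± 0.04, FDR = 1.62e-07). The others were picked out after their values were seen: Cdkn2d (p19) passed the FDR higher but under 2-fold (0.60 ± 0.08, FDR = 0.000393), Cdkn2c (p18) passed it lower but under 2-fold (-0.86 ± 0.12, FDR = 0.000705), and Cdkn1c (p57) did not pass (1.28 ± 0.73, FDR = 0.174). Ccnd1, the D-type cyclin of G1, fell from 56.2 ± 0.693 to 23.2 ± 0.432 FPKM (log2 change -1.26 ± 0.03, FDR = 1.80e-07), and Ccne2, an E-type cyclin, rose from 0.880 ± 0.278 to 2.1 ± 0.252 FPKM (log2 change 1.27 ± 0.25, FDR = 0.00344). Over the 14 tested genes of this G1 list (of 16, without Cdkn2a and Cdkn2b), 3 were called higher and 1 lower. Among all tested genes the shares were 13.4% and 7.73%.

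Of 23 tested RB-E2F, DREAM and MYB regulators (Myb itself was not tested), 2 were called higher and 1 lower. The shares among all tested genes were 13.4% and 7.73%. Median log2 change of the 23 was 0.00. E2f2, an activating E2F, rose (2.27 ± 0.0651 to 4.61 ± 0.116 FPKM, log2 change 1.04 ± 0.07, FDR = 1.05e-05, but 0.993 without untreated replicate 3), as did the repressor E2f7 from a low level (0.167 ± 0.0321 to 0.480 ± 0.121 FPKM, log2 change 1.51 ± 0.25, FDR = 0.00168). Tfdp2, a dimer partner of E2F proteins, fell from 1.35 ± 0.0777 to 0.49 ± 0.07 FPKM (log2 change -1.44 ± 0.13, FDR = 4.85e-05). E2f1 (0.02 ± 0.09, FDR = 0.888) and E2f4 (0.00 ± 0.06, FDR = 0.997) did not pass the test. Mybl2, the MYB protein that joins MuvB, changed by 0.54 ± 0.10 (FDR = 0.00241), Lin9, a MuvB core subunit, by 0.27 ± 0.10 (FDR = 0.0474), and Rbl2, the pocket protein p130 of DREAM, by -0.67 ± 0.07 (FDR = 9.42e-05) on the log2 scale. Myc, a growth-promoting transcription factor, measured 1.41, 1.29 and 1.15 FPKM in untreated and 15.29, 14.20 and 14.63 FPKM in treated libraries (log2 change 3.52 ± 0.09, FDR = 1.82e-07).

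The 40 genes sit on 17 chromosomes, with 6 on chromosome 2. By the annotation in the deposited table, 10 carry the KEGG term for the cell cycle, 26 the Reactome term for the mitotic cell cycle, 20 the spindle term, 16 the midbody term and 13 the kinetochore term of Gene Ontology. Among tested genes that carry the same terms but are not members, the median log2 change was 0.03 for KEGG (12 of 106 called higher), 0.03 for Reactome (31 of 447), -0.11 for spindle (16 of 155), -0.06 for midbody (16 of 136) and 0.10 for kinetochore (11 of 111). These medians lay near that of all tested genes, of which 13.4% were called higher.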

How the data were processed

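Poly(A) RNA of 3 untreated and 3 GB2-treated RAW264.7 libraries, grouped by the sample labels, had been made into strand-keeping (dUTP) libraries and sequenced as paired ends. Tools listed in the submitters' processing notes are HISAT2 2.2.1, cutadapt 1.9, edgeR, StringTie 2.1.6 and DESeq2, and the listed build is mm10. How reads were counted, and whether by strand, is not given in the sources used here. Per gene and library the authors deposited 1 whole-number estimated count, used as it stood, and FPKM values, scaled by the authors to transcript length and library total, used for levels. Low counts pile up at multiples of 4 for an unknown cause.

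The test was the quasi-likelihood F test of edgeR 4.0.16 (R 4.3.3) on counts with TMM scaling, the default filter on low expression and no covariate, over 17124 genes, with Benjamini-Hochberg FDR over all of them. A gene was called at FDR below 0.05 and at least 2-fold, the study's thresholds. Standard errors are of the log2 change, other errors SD. No libraries agreed within sampling noise (chi-square per degree of freedom at least 13.4 in each pair), so all 6 were kept as replicates. On simulated counts 84% of 50 genes changed 3-fold were called, and 100% of the 38 with a mean count of at least 100, with 1 unchanged gene called among 15169 genes. The simulation gave both groups the spread of the untreated libraries. Chi-square per degree of freedom was 13.4 to 24.1 between untreated and 63.8 to 153.0 between treated libraries. These rates therefore do not cover the larger spread of the treated group.

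The members and lists were chosen with earlier results of these data known. All members are named. Of the 110 other mitosis genes the text names the 8 largest called changes without overlap at 1 FPKM or more and all called lower, of the further lists up to 4 called genes, and also Cdkn1a, Myc, Mybl2, E2f1, E2f4, Lin9 and Rbl2. Bub1's neighbours, Pkmyt1 and pairs of genes were picked after values were seen. Promoters came from RefSeq tables, exon overlaps from GENCODE M21. Alternatives were DESeq2 1.42.0 size factors and Wald test, no filter, limma 3.58.1 on log2(FPKM + 1) and log2(FPKM + 0.1), counts divided by 4, a replicate block, each library left out, GB2-treated replicate 1 alone and FDR alone.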

Additional observations from a re-analysis of the deposited data

How the results depend on the processing

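Of the 28 members called higher, 16 kept the call in all 14 alternative fits. The number called higher was 24 to 29 in the fits with more than 1 treated library. An exception was 16 with limma on log2(FPKM + 1), a scale that shrinks low genes. The number was 25 to 29 with single libraries left out. The median log2 change of the members was 1.21 with DESeq2 size factors, 0.86 with limma on log2(FPKM + 1), 1.23 with counts divided by 4 and 1.13 to 1.22 with single libraries left out. Without the filter and in the DESeq2 Wald test the median of all genes lay at 0.18 and 0.24.

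Same-numbered libraries correlated by 0.04, 0.06 and 0.11 in their deviations from the group means, so the numbers were not taken to pair them, although each library correlated best with its own number. With the replicate block 28 members were called higher and 40 of 40 members had the same call, and E2f4 was then at -0.00166.

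With limma on log2(FPKM + 1), 8 other mitosis genes were called higher and 0 lower, 0 replication genes lower, 0 RB-E2F regulators higher and 0 lower, and of all genes 598 higher and 614 lower. With log2(FPKM + 0.1), 1 RB-E2F regulator was called higher. With no filter, 2 other mitosis genes were called lower. By FDR alone the counts higher and lower were 80 and 18 for other mitosis genes, 15 and 19 for replication, 9 and 3 for G1 genes, 9 and 10 for RB-E2F regulators, and 4585 and 5065 for all genes. GB2-treated replicate 1 alone gave 1432 genes higher, with the spread supplied by the untreated libraries only. With single libraries left out, 1 to 2 other mitosis genes were called lower, 3 to 6 G1 genes higher (6 without GB2-treated replicate 1), 1 to 2 RB-E2F regulators higher and 1486 to 3728 of all genes higher. The count of all genes was 3728 without GB2-treated replicate 1, 1519 without untreated replicate 1 and 1486 without untreated replicate 2. The other mitosis genes called lower were 2 without untreated replicate 1, untreated replicate 3 or GB2-treated replicate 2, and the RB-E2F regulators called higher were 1 without untreated replicate 3. The cause was not tested.

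E2f1 and E2f4 changed sign around 0: without the filter -0.0135 and -0.0304, with log2(FPKM + 1) -0.00439 and -0.0183, with log2(FPKM + 0.1) -0.00554 and -0.0191, and with single libraries left out from -0.0714 to 0.138 for E2f1 and from -0.058 to 0.079 for E2f4.

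On simulated counts the 3-fold changes that were missed all had a mean count below 100, so depth limits the weakest genes.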
